A study of Mus musculus with 12 samples.

Results

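Broad replication initiation domains of mouse EpiLCs were called from Okazaki fragment sequencing (OK-seq) and then followed in naive ESCs, whose reads played no part in the call. Watson and Crick reads of the 3 EpiLC libraries were summed, and strand bias was defined, in percentage points, by subtracting the Crick percentage of the 100 kb left of a point from that of the 100 kb on its right. Of 49245 points laid every 50 kb on the autosomes, 46686 had 500 or more EpiLC reads on each side. A point was kept as a domain where its EpiLC strand bias was 10 or more and the highest within 200 kb, which left 2806 domains out of 5756 points at 10 or more. EpiLC values therefore chose the domains and are given here as a description, whereas naive values are the measurement.

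The libraries came from 3 genotypes of mouse embryonic stem cells, all of them altered at KMT2C. Control cells (KMT2C KO) lack the H3K4 methyltransferase KMT2C. KMT2C/D dKO cells lack KMT2C and its paralog KMT2D, the latter deleted from a conditional KMT2D allele by Cre-ER after 4-hydroxytamoxifen. KMT2C/D dCD cells carry catalytically inactive KMT2C and KMT2D. Per the methods, the conditional knockout line has a mixed C57BL/6 and 129 background while the catalytic line (R1) is 129, so background and genotype cannot be told apart in dCD against control. Naive ESCs were kept in LIF and the 2i inhibitors, and EpiLCs, a formative state resembling the early post-implantation epiblast, were obtained by withdrawing them. Each of the 6 conditions had 2 replicates, which are summed in 1 deposited library. No replicate error or p-value can thus be given. Intervals below are 95% intervals from read counts, cover counting error only and compare libraries, not conditions. The reads carry no expression, so cell state was not checked against marker genes, and the deleted parts of Kmt2c and Kmt2d were not examined.

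During S phase the lagging strand is made as Okazaki fragments, and in OK-seq their strand shows which way a fork was moving. Forks moving rightward leave Crick reads and forks moving leftward leave Watson reads. Where forks set out in both directions, the Crick percentage rises from left to right, and the height of the rise grows with the share of cells in which forks start there. In mammalian genomes initiation is spread over broad zones, many of them between genes and close to active promoters, whereas termination lies between zones. KMT2C and KMT2D place H3K4me1 at enhancers.

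Because many of the highest domains lay next to a promoter rich in CpG, the promoters of 5 genes next to named domains are shown, 250 bases before to 50 bases after the RefSeq start (GRCm38.p6), with each CG dinucleotide in capitals. The promoters of Zmynd19, Hnrnpf and Dnmt3b lie at the domain point itself, Foxd3 had the strongest naive bias of the formative gene list, and Usp6nl lies at a domain without positive bias in naive reads.
Zmynd19, chr2:24949527-24949826, plus strand: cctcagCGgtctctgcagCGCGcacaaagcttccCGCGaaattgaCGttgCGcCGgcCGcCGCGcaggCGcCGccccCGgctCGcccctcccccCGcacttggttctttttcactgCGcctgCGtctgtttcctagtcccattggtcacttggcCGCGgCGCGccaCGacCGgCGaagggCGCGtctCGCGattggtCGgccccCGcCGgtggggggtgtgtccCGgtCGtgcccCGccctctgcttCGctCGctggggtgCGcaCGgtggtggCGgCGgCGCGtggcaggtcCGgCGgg
Hnrnpf, chr6:117900090-117900389, plus strand: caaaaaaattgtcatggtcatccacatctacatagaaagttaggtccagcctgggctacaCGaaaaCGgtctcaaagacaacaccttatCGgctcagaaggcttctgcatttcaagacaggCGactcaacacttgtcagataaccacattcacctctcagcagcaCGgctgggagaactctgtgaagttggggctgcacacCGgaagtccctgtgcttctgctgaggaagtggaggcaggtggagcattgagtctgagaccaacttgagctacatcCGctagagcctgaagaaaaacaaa
Dnmt3b, chr2:153649199-153649498, plus strand: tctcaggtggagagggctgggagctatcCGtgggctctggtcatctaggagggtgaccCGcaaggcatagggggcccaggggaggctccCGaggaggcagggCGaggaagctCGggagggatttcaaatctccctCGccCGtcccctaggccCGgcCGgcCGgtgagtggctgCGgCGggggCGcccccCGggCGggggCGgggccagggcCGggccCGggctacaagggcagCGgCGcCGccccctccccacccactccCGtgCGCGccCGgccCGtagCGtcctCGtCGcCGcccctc
Foxd3, chr4:99656049-99656348, plus strand: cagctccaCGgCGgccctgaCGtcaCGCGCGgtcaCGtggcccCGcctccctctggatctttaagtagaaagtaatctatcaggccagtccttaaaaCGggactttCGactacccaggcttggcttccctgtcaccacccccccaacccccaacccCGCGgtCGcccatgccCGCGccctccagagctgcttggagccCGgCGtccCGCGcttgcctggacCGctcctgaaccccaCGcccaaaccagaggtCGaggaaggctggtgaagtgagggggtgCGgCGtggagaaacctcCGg
Usp6nl, chr2:6322507-6322806, plus strand: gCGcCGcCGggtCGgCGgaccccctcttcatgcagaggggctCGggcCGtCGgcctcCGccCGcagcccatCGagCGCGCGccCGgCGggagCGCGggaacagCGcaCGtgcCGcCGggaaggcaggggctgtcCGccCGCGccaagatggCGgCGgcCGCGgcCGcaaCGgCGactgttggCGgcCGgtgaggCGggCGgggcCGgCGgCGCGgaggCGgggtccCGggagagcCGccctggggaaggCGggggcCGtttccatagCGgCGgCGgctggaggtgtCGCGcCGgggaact

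These 300 bases held 45 CG at Zmynd19, 7 at Hnrnpf, 30 at Dnmt3b, 25 at Foxd3 and 51 at Usp6nl. CG reads the same on both strands and overlaps no other motif searched. Over the autosomal RefSeq promoters, 44.0% held 10 or more CG and the median was 7. Among the 4085 promoters within 25 kb of a domain the share was 63.9% and the median 16, against 30.6% and 4 for the 11978 promoters more than 200 kb from any domain. A CG-rich promoter was thus common near domains, but Hnrnpf had few CG at a strong domain and Usp6nl many at a weak one.

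Domains were spread over all autosomes, from 76 on chromosome 19 to 230 on chromosome 2. Their density ran from 1.01 per Mb on chromosome 14 to 1.40 per Mb on chromosome 11. The median gap between neighbours was 650 kb, with 71.8% of gaps under 1000 kb and a range of 250 to 7150 kb. The EpiLC strand bias of the domains had a median of 17.2 and reached 44.3.

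The EpiLC domains were also sites of strand bias in naive ESCs. Over the 2804 domains where both sides held 20 or more reads in all naive libraries, strand bias in the summed naive reads averaged 21.4, with a median of 20.9, quartiles of 13.99 and 28.4 and a range of -9.50 to 52.1. All 46646 points tested averaged 0.03, and the 23405 points more than 200 kb from a domain averaged -2.61. In the summed naive reads 2441 domains (87.1%) were at 10 or more, against 17.2% of all points. In each of the 3 naive libraries separately, 1940 domains (69.2%) reached 10, against 10.2% of all points. The counting interval lay above 0 at 2627 domains (93.7%), against 25% of all points. Only 31 domains (1.11%) were at or below 0 in the summed naive reads, against 54.9% of all points.

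The other 2 domains, next to Skint10 and Skint6 on chromosome 4, were left out because 1 or both sides held fewer than 20 reads in naive dCD. Next to Skint6 the left side held 123 reads in naive control and 123 in naive dKO but 12 in naive dCD, and 315, 362 and 18 in the EpiLC libraries. Next to Skint10 the left side held 116, 113 and 66 reads in naive control, dKO and dCD, and the right side 126, 101 and 12. In the EpiLC libraries these were 382, 377 and 194 on the left and 303, 336 and 43 on the right. Both dCD libraries were low at this cluster of immune-related Skint genes, and the cause was not tested.

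Position was shared as well as height. The highest naive point within 200 kb was the domain point itself at 1926 domains (68.7%), against 10.7% of all points. It lay within 50 kb at 2422 domains (86.4%), against 32.1%. When the same rule was run on the summed naive reads, with a minimum of 150 reads a side for their lower depth, it called 3473 domains. Of the EpiLC domains, 82.5% had a naive domain within 50 kb, compared with 22.2% of all points. Of the naive domains, 66.7% had an EpiLC domain within 50 kb, compared with 17.96% of points. Heights in the summed EpiLC and naive reads correlated across the 2804 domains with Pearson's r of 0.722, and across all 46646 points with 0.867, a description over sites that share base composition and neighbouring reads.

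**Figure D1:**
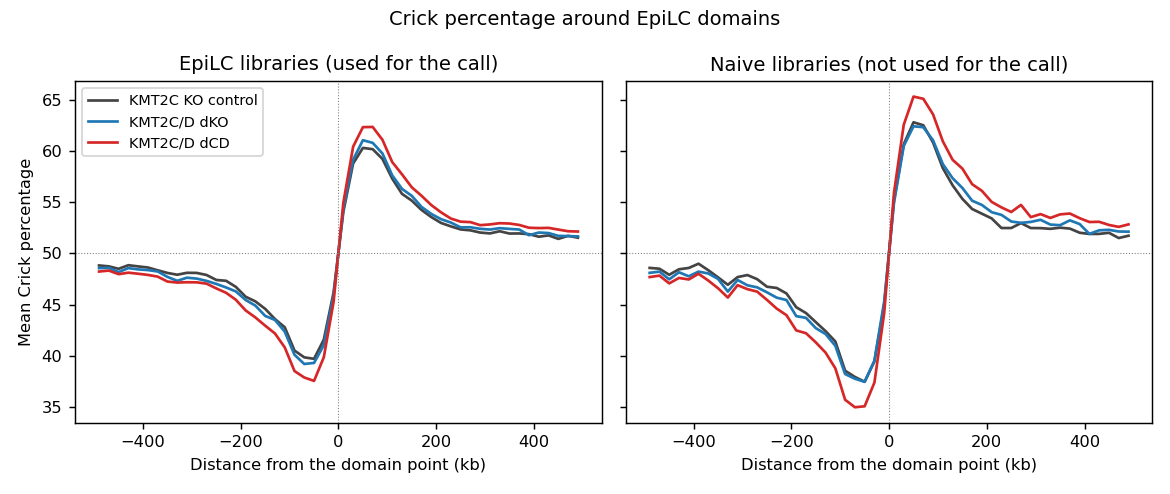
Mean Crick percentage in bins of 20 kb (y axis) against distance from the domain point in kb (x axis), over 2804 domains, for the 3 EpiLC libraries (left) and the 3 naive libraries (right). In naive reads the Crick percentage is lowest 50 to 70 kb to the left (34.9 to 37.4) and highest 50 kb to the right (62.4 to 65.3), with dCD the widest.

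The plot of Crick percentage around domains gives the mean profile. Its shape is partly set by the rule, which chose points for the contrast between windows of 100 kb, so it is a description and does not measure the extent of initiation. In naive control reads the Crick percentage fell to 37.4 at 50 kb to the left and rose to 62.8 at 50 kb to the right. The dKO library had 37.4 and 62.4 at the same distances, and dCD reached 34.9 at 70 kb to the left and 65.3 at 50 kb to the right. At 490 kb from the point the naive control values were back to 48.6 and 51.7. The rise of the mean profile thus lay between the points 50 to 70 kb to the left and 50 kb to the right, with the 20 kb on either side of the point intermediate (44.97 and 55.2 in naive control). Further out the naive control values already moved back, to 38.5 at 90 kb to the left and 60.9 at 90 kb to the right.

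By library, mean naive strand bias at the domains was 20.16 in control (19.98 to 20.34), 20.16 in dKO (19.97 to 20.36) and 24.16 in dCD (23.96 to 24.35). The corresponding EpiLC means, raised by the call itself, were 16.8, 17.7 and 20.04. To take that part away, domains were also called in 2 EpiLC libraries and measured in the remaining library. The EpiLC means were then 15.7 in control, 16.5 in dKO and 19.0 in dCD, against 19.8, 19.2 and 23.6 in the naive library of the same genotype at the same domains. Naive bias was 1.26, 1.17 and 1.25 times EpiLC bias in control, dKO and dCD. At the domains called in all 3 EpiLC libraries, summed naive bias was above summed EpiLC bias at 1871 (66.7%), against 48.6% of all points, although the call raised the EpiLC value.

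That ratio went along with a wider spread of Crick percentage across the whole genome in naive libraries. This amplitude, the SD of Crick percentage over bins of 100 kb with counting variance removed, was 11.7, 12.5 and 15.7 in naive control, dKO and dCD and 9.13, 10.04 and 11.7 in the EpiLC libraries. Naive amplitude was 1.28, 1.25 and 1.35 times EpiLC amplitude. The naive surplus at domains was thus no larger than the surplus of the whole genome in any genotype. Differences in the purity of Okazaki fragments between libraries were not tested.

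Domains with higher EpiLC bias had higher naive bias throughout, as did all points. Naive bias averaged 14.1 at the 1015 domains with EpiLC bias of 10 to under 15, 20.3 at the 812 from 15 to under 20, 28.4 at the 850 from 20 to under 30 and 39.8 at the 127 at 30 or more. All points in the same classes averaged 14.1, 20.2, 28.1 and 39.7, so the rise was not particular to domains. Among the domains, the share at 10 or more in naive reads rose over these classes from 72.0% to 91.5%, 98.8% and 100%. That share is not given here for all points of the classes. At the threshold itself, the 4 domains just inside lay between 10.0007 and 10.0159 in EpiLC reads. By the gene with the nearest TSS, their naive bias was 10.9 (Crim1, 1000 kb away), 0.769 (Stxbp6, 325 kb), 5.70 (Mitf, 57.1 kb) and 0.742 (Polg, 33.6 kb). The 4 highest points just outside lay between 9.98756 and 9.99947 and had naive bias of 19.0 (Rtkn2), 11.9 (Trpc4), 16.5 (Zfp945) and 5.38 (Pax2). Points on either side of the threshold overlapped in naive reads.

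The highest domains were near genes of varied function and were strong in every library. The highest of all, on chromosome 17 at 15000000 next to Gm3435 and within Gm3448, had EpiLC bias of 34.7 in control, 43.2 in dKO and 53.2 in dCD, and naive bias of 45.5, 46.4 and 66.4. These predicted genes are known here by their model names alone. Tmco1 encodes a calcium channel of the endoplasmic reticulum, and its domain had 39.9, 39.7 and 40.7 in EpiLC control, dKO and dCD and 46.0, 47.1 and 61.1 in naive. At Zmynd19, a zinc finger gene whose start lies 0.208 kb from the point, the values were 38.8, 35.9 and 44.7 in EpiLCs and 49.3, 50.8 and 46.9 in naive ESCs. All 6 libraries were above 30 at these domains.

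Among the other 5, the domain of Hnrnpf, which encodes an RNA-binding splicing factor, had 33.1, 36.6 and 41.7 in EpiLC control, dKO and dCD and 42.9, 53.4 and 51.3 in naive. The domain of Cenpf, a kinetochore protein of dividing cells, had 35.6, 36.3 and 40.6 in EpiLCs and 31.8, 40.7 and 38.2 in naive, and was the only one of the 8 below its EpiLC value in the summed naive reads (36.6 against 37.4). Cryzl2, Akap7, which encodes a kinase anchor, and Mllt3, a subunit of the super elongation complex, had summed naive bias of 44.3, 43.4 and 44.2. All 8 lay close to the start of the gene, at distances from 0.208 to 16.6 kb.

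**Figure D2:**
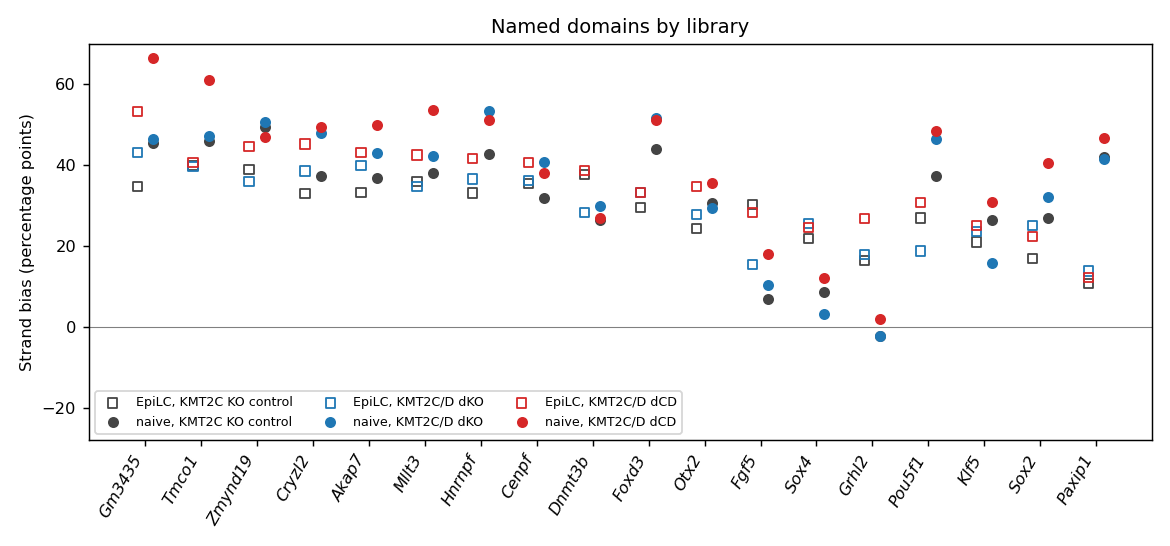
Strand bias in percentage points (y axis) of named domains (x axis, by nearest listed gene) in each of the 6 libraries, with open squares for EpiLC and filled circles for naive ESCs, coloured by genotype. The 8 domains highest in EpiLCs stay between 31.8 and 66.4 in naive ESCs, whereas Fgf5, Sox4 and Grhl2 are lower in every naive library than in any EpiLC library except for Fgf5, where naive dCD (18.1) passes EpiLC dKO (15.5).

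The gene lists of the transition were placed against the domains. Of 20009 protein-coding genes, 5464 (27.3%) had their TSS within 50 kb of a domain. For formative factors, genes associated with the EpiLC state, it was 11 of 14, and for naive pluripotency factors 6 of 14. Origin licensing and firing factors had 11 of 28, H3K4 methyltransferase complex genes 5 of 13 and common fragile site genes 8 of 15. Ribosomal protein genes had 46 of 78 (59.0%) and olfactory receptor genes, which serve smell in sensory neurons, 38 of 1121 (3.39%). The olfactory genes are clustered and their 38 starts share 14 domains.

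Domains of formative genes fell into different levels in naive ESCs. At Dnmt3b, a de novo DNA methyltransferase of the epiblast, the point lies 0.55 kb inside the gene. EpiLC bias there was 37.8 in control, 28.3 in dKO and 38.6 in dCD, and naive bias 26.4, 29.8 and 27.0. The domain of Foxd3, a forkhead factor of the epiblast, had 29.5, 33.3 and 33.2 in EpiLCs and 43.9, 51.7 and 51.3 in naive. The domain of Otx2, a homeobox factor that drives the formative state, had 24.3, 27.8 and 34.6 in EpiLCs and 30.7, 29.5 and 35.6 in naive. Foxd3 thus stood higher in all naive than in all EpiLC libraries, while the ranges overlapped at the Otx2 domain, 26.2 kb from the TSS.

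Other formative genes had low naive values. At Fgf5, the growth factor used as the classic marker of this state, the domain lies 45.8 kb from the TSS. It had 30.3 in control, 15.5 in dKO and 28.4 in dCD EpiLCs, and 6.80, 10.4 and 18.1 in naive ESCs. The domain of Sox4, an HMG-box factor, had 21.8, 25.6 and 24.6 in EpiLCs and 8.66, 3.21 and 12.2 in naive. The domain of Grhl2, a grainyhead factor that opens epithelial enhancers, had 16.4, 17.96 and 26.9 in EpiLCs and -2.15, -2.35 and 1.89 in naive. At the domains of Sox4 and Grhl2, 53.7 and 33.0 kb from the TSS, all 3 naive libraries were below all 3 EpiLC libraries. The summed naive intervals were 5.46 to 17.6 at Fgf5, 2.12 to 13.8 at Sox4 and -6.52 to 5.19 at Grhl2. Over the 12 domains nearest to formative genes within 100 kb, 10 were at 10 or more in naive reads and 6 were higher there than in EpiLC reads, where the shares of all domains were 87.1% and 66.7%.

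The 9 domains nearest to naive pluripotency genes were all at 10 or more in naive reads and all higher there than in EpiLC reads, which held for 87.1% and 66.7% of all domains. At Pou5f1, which encodes OCT4, the values were 26.9, 18.8 and 30.7 in EpiLC control, dKO and dCD and 37.4, 46.5 and 48.4 in naive. At Klf5, a Krüppel-like factor, they were 21.0, 23.6 and 25.1 in EpiLCs and 26.3, 15.8 and 31.0 in naive. The domain of Sox2, 99.6 kb from its TSS, had 16.9, 25.1 and 22.3 in EpiLCs and 27.0, 32.1 and 40.7 in naive. Pou5f1 and Sox2 were higher in every naive than in every EpiLC library, while the libraries overlapped at Klf5. Median naive bias was 25.9 over these 9 domains and 19.5 over the 12 formative domains. Across the 2804 domains the naive median was 20.9, which lies between them.

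Genes of the replication and methylation machinery gave further examples. The domain of Mcm4, a subunit of the replicative helicase, had 25.02, 37.6 and 31.98 in EpiLC control, dKO and dCD and 38.9, 43.1 and 50.5 in naive. The domain nearest to Gins2, a subunit of the helicase-activating GINS complex, had 22.2, 25.8 and 30.4 in EpiLCs and 26.9, 20.6 and 32.1 in naive. The TSSs of Mcm4 and Gins2 lay 37.4 and 60.7 kb from these points. The domain nearest to Ticrr, an origin firing factor with its TSS 89.8 kb away, had summed bias of 12.7 in EpiLCs and 2.22 in naive reads (-3.36 to 7.78). Of 15 domains near such genes 14 were at 10 or more in naive reads and 10 were above their EpiLC value, close to the 87.1% and 66.7% of all domains.

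Near genes of the H3K4 methyltransferase complexes all 7 domains were at 10 or more in naive reads and above their EpiLC value, against 87.1% and 66.7% of all domains. With so few domains these counts are a description. Wdr5 and Dpy30, which encode core subunits shared by these complexes, had summed naive bias of 41.8 and 30.4. The domain at Paxip1, whose product PTIP is a subunit particular to the KMT2C and KMT2D complexes, had 10.7, 13.8 and 12.2 in EpiLCs and 42.0, 41.5 and 46.6 in naive ESCs. All 3 naive libraries thus stood far above all 3 EpiLC libraries. The domain beside Kmt2c had 22.4, 30.1 and 36.6 in naive control, dKO and dCD, and that nearest to Kmt2d, 78.8 kb away, had 9.75, 21.1 and 26.9.

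Several long genes of common fragile sites had a domain near their start. The domain beside Auts2, a long neuronal gene, had 30.1, 30.8 and 37.4 in EpiLC control, dKO and dCD and 38.9, 36.0 and 45.5 in naive. Near Ctnna3, an alpha-catenin gene, it had 20.6, 27.5 and 27.3 in EpiLCs and 29.7, 35.0 and 40.6 in naive. Among ribosomal protein genes, the domains nearest to Rpl13 and Rpl6 had summed naive bias of 46.2 and 41.6. The highest near olfactory receptor genes, Olfr1423 and Olfr1368, had 34.5 and 30.3.

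**Figure D3:**
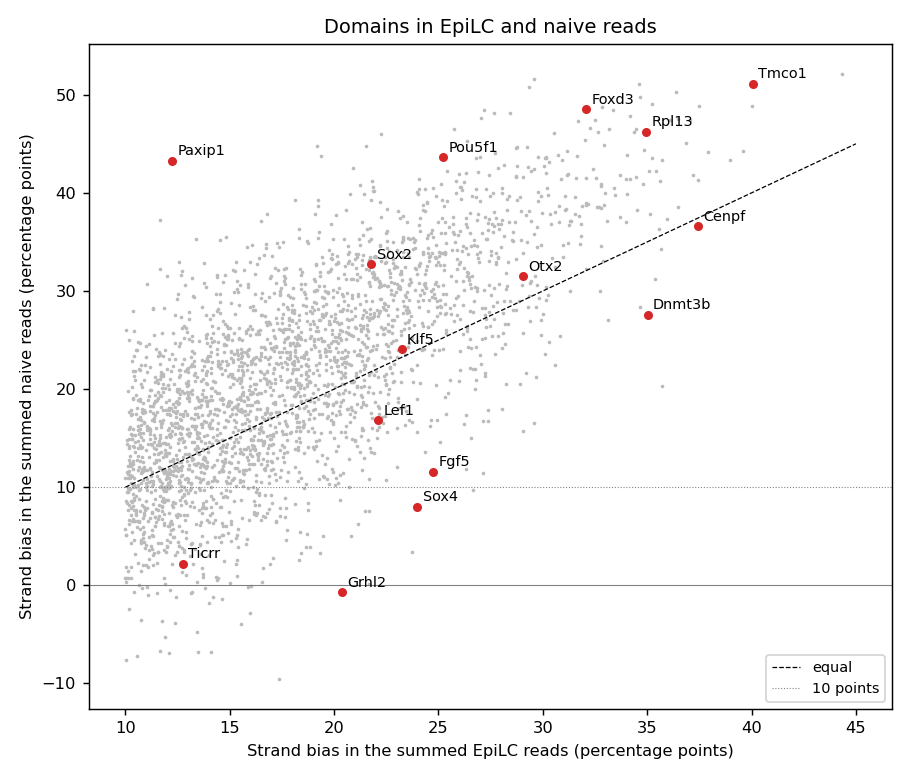
Strand bias in the summed naive reads (y axis) against that in the summed EpiLC reads (x axis), in percentage points, for 2804 domains (grey), with named domains in red, a dashed line of equal values and a dotted line at 10 points. Paxip1 lies far above the dashed line (12.3 in EpiLCs, 43.3 in naive), and Grhl2, Sox4 and Fgf5 lie far below it.

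The 31 domains at or below 0 in naive reads had EpiLC bias of 10.03 to 20.4 with a median of 12.4. All 31 were above 0 in each EpiLC library, as were 2440 of the 2441 domains at 10 or more in naive reads. The call itself used the EpiLC reads, so these counts are a description. A protein-coding TSS lay within 25 kb of 11 of the 31 (35.5%), compared with 69.7% of the 2441. Their median CpG density was 8.56 per kb against 11.4. The interval lay wholly below 0 at 6 of the 31, and the share over all points is not given here. The lowest was near Jakmip2 on chromosome 18 (-5.39, -11.1 and -12.4 in naive control, dKO and dCD), followed by Usp6nl (-1.25, -6.53 and -17.2), Asb13, Sim2 and Cd164 with summed bias of -7.17, -6.91 and -6.82. These 5 were chosen for their naive values.

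Gene starts were most frequent at the centre of the domains. A protein-coding TSS lay within 25 kb of 1878 domains (66.98%), against 27.99% of all points, and within 10 kb of 1081 (38.6%), against 14.03%. The median distance to a TSS was 14.4 kb at domains and 74.3 kb over all points. TSS density peaked at 23.2 per Mb next to the point and was 9.18 per Mb at 110 kb to the left. To the right of the point plus-strand genes covered 34.5% of bases and minus-strand genes 19.0%. To the left the order was reversed, with 33.5% in minus-strand and 19.96% in plus-strand genes. Over all points the 4 shares lay between 21.2% and 22.1%. Gene orientation thus matched the direction of forks leaving the point more often than over all points.

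Genes read away from the point on both sides occurred at 660 domains (23.5%), against 7.14% of all points, and naive bias there averaged 25.4. Genes read toward the point on both sides occurred at 215 (7.67%), near the 7.69% of all points, with naive bias of 18.5. No protein-coding gene lay in the 200 kb window at 171 domains (6.10% against 27.8%), with naive bias of 13.1. Domains inside a gene of 300 kb or more numbered 147 (5.24% against 13.2%), with naive bias of 17.7. All 13056 points with a TSS within 25 kb averaged 5.59 in naive reads, against 0.03 over all points, and 35.5% of them were at 10 or more, against 17.2%. The 4033 of these points that lay more than 200 kb from a domain averaged -0.38, above the -2.61 of all points that far from a domain. The latter points were set apart by the absence of a called domain, so their low naive values are a description.

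**Figure D4:**
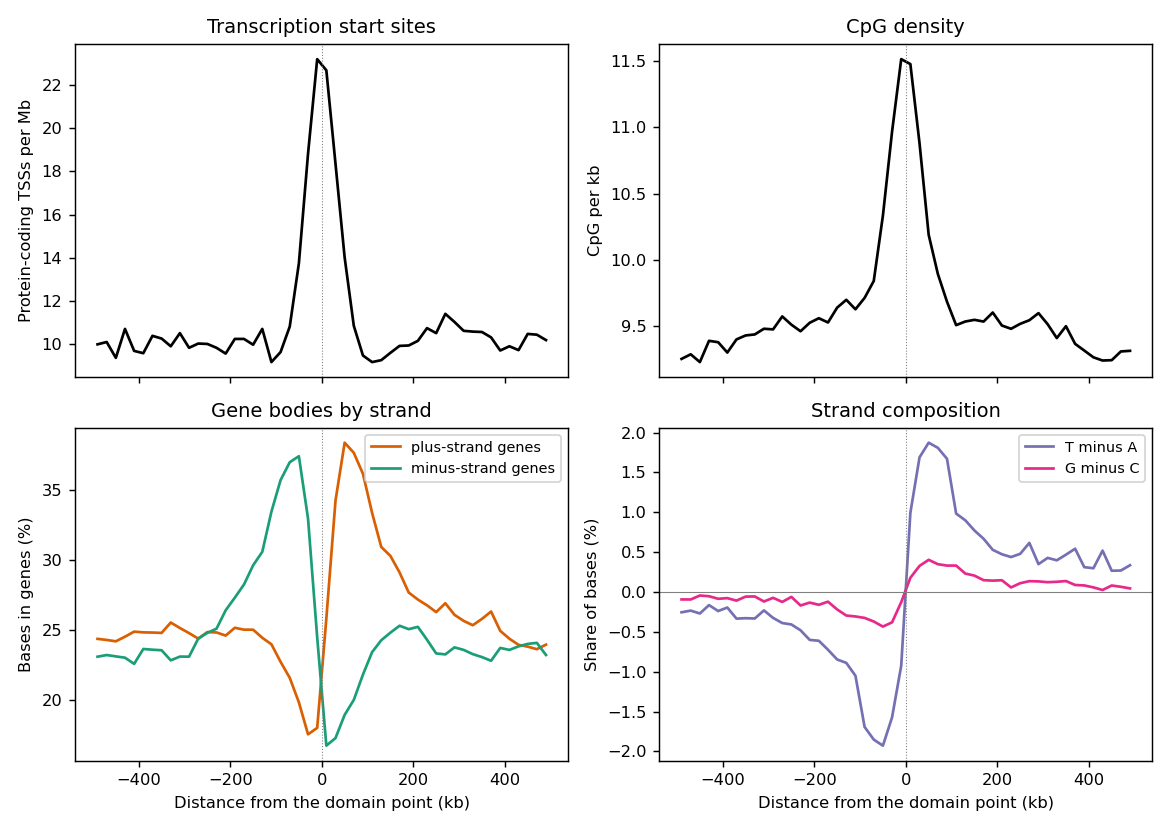
Annotation and base composition in bins of 20 kb against distance from the domain point in kb, averaged over domains, with TSSs per Mb, CpG per kb, percent of bases in plus-strand and minus-strand genes, and T minus A and G minus C as percent of bases. TSS and CpG density peak at the point (23.2 per Mb and 11.5 per kb), and gene strand, T minus A and G minus C change over there.

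Base composition also changed over at the point. CpG density in the 50 kb around it averaged 11.4 per kb, against 8.55 over all points, and GC content over the window was 43.6% against 41.9%. On the reference strand, T minus A was -1.59% of bases on the left and 1.61% on the right. The step of 3.20 was above 0 at 88.7% of domains, against 48.5% of all points, whose mean step was 0.00. G minus C had a step of 0.645. Such skews are known from initiation zones and gene starts of mammalian genomes.

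The T minus A step bears on the measure itself, because Crick reads also followed the T minus A content of single bins in every library, by 1.15 to 1.74 percentage points for each percent of T minus A. When the fitted part was taken off in each library at the same domains, mean naive bias fell from 21.4 to 15.01. Of the domains 1968 (70.2%) were then at 10 or more, against 12.5% of all points treated alike. By library the naive means were 13.8 in control, 14.1 in dKO and 17.4 in dCD. The naive bias of EpiLC domains was thus smaller without the T minus A part, but their share at 10 or more remained above that of all points. The mean over all points was 0.03 in either case. Left and right windows cancel over a regular grid, so that mean lies near 0 under any treatment.

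Mutant and control libraries were compared at the same domains in naive reads. The dKO mean differed from control by 0.00819 points (-0.254 to 0.271), an interval that includes 0. The dCD mean was higher by 4.001 (3.74 to 4.27). At single domains the dCD interval lay above control at 429 (15.3%, against 5.59% of all points) and below it at 83 (2.96%, against 5.15%). For dKO it lay above control at 165 (5.88% against 4.11%) and below at 155 (5.53% against 4.2%). The differences between dKO and control varied over domains with an SD of 8.70, where counting alone gives 7.09. Over all points the SD was 8.56 and counting alone gives 7.68. With the counting part removed, the SD was 5.03 at domains, 3.79 over all points and 3.40 at points more than 200 kb from a domain. A spread beyond counting error was thus also present away from the domains, but was larger at them.

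Mean naive bias at the domains was 1.20 times control in dCD, below the ratio of that library's wider amplitude of Crick percentage. Naive amplitude was 1.34 times control in dCD and 1.07 times in dKO. To take this into account, the mutant strand bias was divided by the amplitude ratio before control was subtracted, here called scaling to the control amplitude. The dCD difference was then -2.18 (-2.41 to -1.95) and the dKO difference -1.31 (-1.56 to -1.06). The direction for dCD therefore depends on whether the genome-wide amplitude of Crick percentage is taken into account. Another genome-wide measure, the SD of strand bias over all points without counting variance, was 10.8, 10.5 and 12.6 in naive control, dKO and dCD. By that measure dKO was not wider than control. Scaling by it was not run, so the scaled values hold for the amplitude of Crick percentage alone. The near-zero dKO difference likewise depended on window size, with -0.832 for windows of 50 kb and 0.858 for windows of 200 kb.

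Among the EpiLC domains measured in naive reads, the dKO difference varied with the distance to a TSS. It was 0.904 (0.498 to 1.31) at the 1081 domains with a TSS within 10 kb and -1.05 (-1.61 to -0.483) at the 616 with the nearest TSS 25 to 100 kb away. The difference between these classes was 1.95 (1.26 to 2.65). Without the T minus A part, the classes had 1.14 (0.728 to 1.56) and -0.883 (-1.46 to -0.308). With mutant bias scaled to the control amplitude they had -0.561 (-0.954 to -0.168) and -2.26 (-2.81 to -1.71). At the 310 domains with no TSS within 100 kb the dKO difference was -0.489 (-1.39 to 0.416). At the 1878 with a TSS within 25 kb, which include those within 10 kb, it was 0.437 (0.125 to 0.748). Domains at 10 to 25 kb were not measured as a class. The domains with a TSS within 10 kb were thus higher relative to control than those at 25 to 100 kb under each treatment, but the sign of the value within 10 kb changed with the scaling. Classes by gene direction did not follow the same order. The dKO difference was -0.629 (-1.15 to -0.111) at the 660 domains with genes read away on both sides and 1.07 (0.158 to 1.98) at the 215 with genes read toward the point. With mutant bias scaled to the control amplitude, these were -2.17 (-2.67 to -1.67) and -0.0878 (-0.969 to 0.793).

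By CpG density the dKO difference was -0.720 (-1.31 to -0.134) in the quartile of domains poorest in CpG, -0.0823 (-0.603 to 0.438) and -0.274 (-0.776 to 0.229) in the middle quartiles and 1.12 (0.636 to 1.61) in the richest. There was thus no steady order over the quartiles. With mutant bias scaled to the control amplitude, the richest quartile had -0.276 (-0.745 to 0.193), with the sign turned and an interval that includes 0, and the poorest -1.79 (-2.35 to -1.22). Whether the splits by TSS distance and by CpG density are separate was not tested. The dCD difference was 4.79 (4.38 to 5.20) with a TSS within 10 kb, 3.39 (2.82 to 3.96) at 25 to 100 kb and 1.78 (0.860 to 2.71) beyond 100 kb, where control itself had 21.5, 19.6 and 13.5. With dCD bias scaled to the control amplitude these were -1.94 (-2.30 to -1.58), -2.49 (-2.98 to -1.99) and -2.13 (-2.93 to -1.32), so the signs turned and the decline with TSS distance was no longer seen. In the 171 windows without a protein-coding gene the dCD difference was 0.615 (-0.693 to 1.92) as measured and -2.87 (-4.01 to -1.74) after the scaling.

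**Figure D5:**
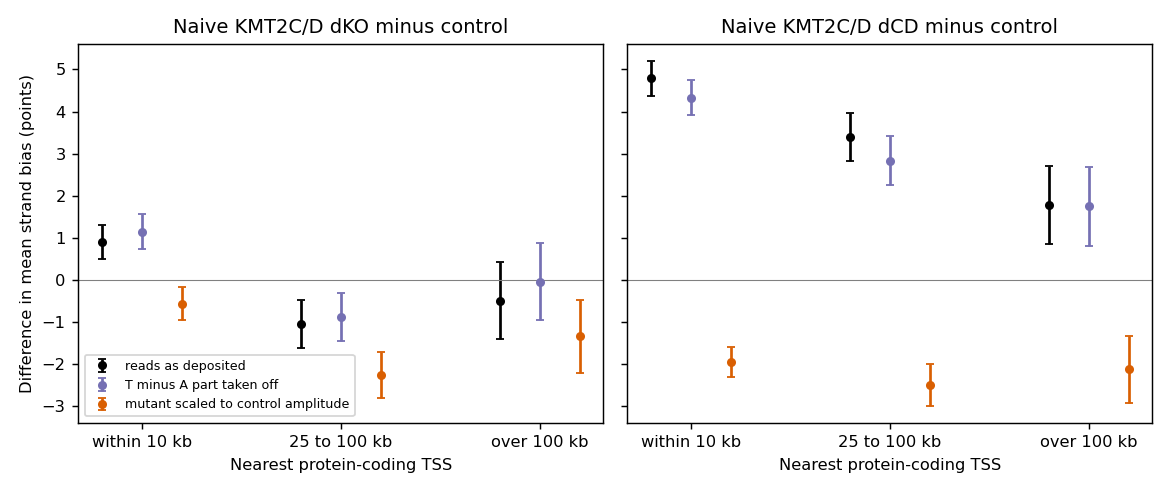
Mutant minus control in mean naive strand bias (y axis, percentage points) for domains grouped by distance to the nearest protein-coding TSS (x axis), dKO on the left and dCD on the right, with bars for 95% counting intervals. Black shows reads as deposited, purple the values without the T minus A part and orange the differences after mutant bias was scaled to the control amplitude. The dKO value is higher within 10 kb than at 25 to 100 kb in all 3 treatments, and the dCD values fall below 0 after the scaling. Domains at 10 to 25 kb are not shown.

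To keep the call apart from the EpiLC measurement, the domains called in naive reads were used for EpiLC libraries. There the EpiLC dKO difference from control was 1.28 (1.14 to 1.43), with 1.30 (1.07 to 1.53) at 1214 domains with a TSS within 10 kb and 1.38 (1.06 to 1.69) at 728 with a TSS 25 to 100 kb away and 0.785 (0.401 to 1.17) at 647 with none within 100 kb. The dKO values within 10 kb and at 25 to 100 kb thus lay within each other's intervals. Whether the classes differ between EpiLC and naive libraries was not tested. The dCD difference was 2.64 (2.50 to 2.79), with 3.05 and 2.77 in these classes and 0.526 (0.147 to 0.904) beyond 100 kb. EpiLC amplitude was 1.10 times control in dKO and 1.28 in dCD. After mutant bias was divided by these ratios, and control then subtracted, the dKO difference was 0.00320 (-0.135 to 0.142) and the dCD difference -0.726 (-0.855 to -0.596). In EpiLCs, dKO at these domains thus differed from control by as much as the genome-wide amplitude of Crick percentage did, within counting error. The SD of strand bias over all points was 7.91, 8.46 and 9.43 in EpiLC control, dKO and dCD. Scaling by that SD was not run.

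Depth set the limits of these statements. The naive libraries held 3655095 to 4409068 reads and the EpiLC libraries 11407678 to 13601460. At domains, the median reads in the 100 kb on the left were 211, 184 and 171 in naive control, dKO and dCD and 555.5, 627 and 631.5 in the EpiLC libraries. A naive value of a single domain in a single library therefore has a wide interval, and means over many domains are narrower. Both mutants were compared with the same control library.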

How the data were processed

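OK-seq reads of 12 samples, 2 replicates in each of 6 conditions, were aligned by the authors to mm10 with bowtie2 and counted by strand in bins of 1 kb. The submitters' processing notes also name FastQC, Trim Galore and Picard, with no parameters, so duplicate removal is not known. The authors deposited Watson and Crick density as signal in reads per bp, replicates summed and library sizes not equalised; all values were whole multiples of 0.001 and were multiplied by 1000. Positions were taken as bin ends, since 0 reads then fell in the 74135 kilobases of N, against 3045 as bin starts.

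Genes are those of GENCODE M21 (mm10) and promoters those of RefSeq. Class means and differences carry 95% binomial intervals, and single domains Newcombe intervals. Intervals cover counting error only, as PCR copies of a molecule could not be told apart. For the T minus A part, a bin's Crick surplus over its neighbours (10 bins on either side) was regressed on its T minus A content, and the fitted reads were moved to Watson. Python 3.11.15, numpy 2.4.6, pandas 2.3.3 and scipy 1.17.1 were used, and scripts were tested on simulated strands. Named domains were the 8 highest in EpiLCs, the 2 highest per gene list within 100 kb (others named for contrast were chosen after their values were seen), 4 on each side of the threshold and the 5 lowest in naive reads. Members, lists and tests were chosen with earlier results of these data known. H3K4me1, replication timing and expression were not used here.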

Additional observations from a re-analysis of the deposited data

Results flagged for a closer look

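Chromosome X lay outside the rule, which uses autosomes. Run on it, the same rule called 156 domains among 2323 points, and 119 of them (76.3%) were at 10 points or more in the summed naive reads, against 18.6% of all chromosome X points. Mean naive strand bias there was 18.4 in control, 18.3 in dKO and 20.8 in dCD.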

How the results depend on the processing

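The number of domains was within 1.5 times 2806 under every alternative run except a threshold of 20 points, which called 977. With windows of 50 kb, naive means were 18.7 (control), 17.8 (dKO) and 21.1 (dCD), differences from control -0.832 (dKO) and 2.38 (dCD) and the share at 10 or more 81.5%. With windows of 200 kb, naive means were 21.1 (dKO) and 25.8 (dCD), differences from control 0.858 (dKO) and 5.54 (dCD) and the share at 10 or more 89.5%. At a threshold of 5 points, naive means were 16.7 (control), 16.3 (dKO) and 19.4 (dCD), differences from control -0.366 (dKO) and 2.79 (dCD) and the share at 10 or more 71.6%. At a threshold of 20 points, naive means were 28.1 (control), 27.9 (dKO) and 34.1 (dCD), differences from control 5.98 (dCD) and the share at 10 or more 98.98%. Without the T minus A part, call included, naive means were 15.6 (control), 16.1 (dKO) and 19.7 (dCD), differences from control 0.481 (dKO) and the share at 10 or more 79.99%. For points highest within 400 kb, naive means were 21.6 (control), 21.5 (dKO) and 25.9 (dCD), differences from control 4.34 (dCD) and the share at 10 or more 89.4%. For domains called without the EpiLC control library, naive means were 19.8 (control), 19.8 (dKO) and 23.95 (dCD) and the share at 10 or more 85.8%. For domains called without the EpiLC dKO library, naive means were 19.5 (control), 19.2 (dKO) and 23.4 (dCD) and the share at 10 or more 84.04%. For domains called without the EpiLC dCD library, naive means were 19.95 (dKO) and 23.6 (dCD), differences from control 3.57 (dCD) and the share at 10 or more 85.7%. With reads summed over domains, naive means were 20.7 (control), 20.6 (dKO) and 25.03 (dCD) and differences from control 4.32 (dCD). At domains with no protein-coding TSS within 100 kb, naive means were 13.5 (control), 13.01 (dKO) and 15.3 (dCD) and differences from control -0.489 (dKO) and 1.78 (dCD). Without the T minus A part in the measurement alone, a choice made after the data were seen, naive means were 13.8 (control), 14.1 (dKO) and 17.4 (dCD), differences from control 3.57 (dCD) and the share at 10 or more 70.2%. With mutant bias divided by the amplitude ratio before control was subtracted, naive differences were -1.31 (dKO) and -2.18 (dCD), the latter with the sign turned, and at domains called in the other naive mutant library -0.46 and 2.67. Naive bias was above 0 at 98.9% of domains and its interval above 0 at 93.7%. EpiLC means in control, dKO and dCD were 16.8, 17.7 and 20.04 at domains called in all 3 libraries, and 13.5, 13.8 and 16.5 without the T minus A part. EpiLC differences at naive-called domains were 0.00320 (dKO) and -0.726 (dCD) with mutant bias scaled in the same way, where dCD turned sign, 0.81 (dKO) and 2.22 (dCD) with T minus A off and 1.66 (dKO) and 3.84 (dCD) at a threshold of 20 points. The share of domains with a TSS was 38.6% within 10 kb, 83.5% within 50 kb, 88.9% within 100 kb and 82.4% within 25 kb of any annotated gene. The other 54 values stayed within the counting interval of the reported value, or for counts within 1.5 times. Where a value moved because other points, windows or genes were counted, the alternative's construction shows why, and otherwise the cause was not tested. No paired analysis was possible because the replicates of each condition are summed in the deposited files, and for the same reason no replicate could be left out. Low naive depth limits single domains.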
